A study of Mus musculus with 6 samples.

Results

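The genes described here build and turn over actin filaments: 4 actins (Actb, Actg1, Acta2 and Actc1), the 3 ADF/cofilins (Cfl1, Cfl2 and Dstn), the profilin Pfn1 and the beta thymosins Tmsb4x and Tmsb10. They were taken by gene symbol from the platform annotation, and the set was chosen by gene family with the ventral against dorsal values of these arrays already known. That contrast is therefore given for them as a description, and the count of calls among them supports nothing. Of the 10 genes, 9 had a row among the 24675 genes measured, each with 1 probe set, and Actg1 was not analysed here. Transcript levels were measured on Affymetrix Gene 2.0 ST arrays in mouse embryos of the C57Bl/6 strain at embryonic day 10.5. Ventral tissue (3 arrays) lay beneath the dorsal aorta, and dorsal tissue (3 arrays) lay between the aortic roof and the notochord. Both were cut by laser microdissection from unfixed, stained cryosections of the same embryos, with no treatment or transgene in either group. How many embryos went into a sample was not stated. The series concerns the tissue under the aorta as a niche of blood stem cells, and the comparison asks how its transcripts differ from those of the opposite side.

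Actin exists as monomers and as filaments, and cells move by adding subunits at one filament end and removing them at the other. Profilin binds monomers and hands them to growing ends, beta thymosins hold monomers in reserve, and ADF/cofilins sever old filaments and return their subunits to the pool. Beta and gamma actin form the cytoskeleton of nearly all cells, while the alpha actins of smooth and cardiac muscle build contractile filaments and are also used by some embryonic mesenchyme. When monomers are bound up, the cofactor MRTF enters the nucleus and, with serum response factor, drives many actin genes through a motif called the CArG box.

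The authors' values are log2 RMA signals, so a difference of 1 is a 2-fold change in signal. The array medians lay between 3.20 and 3.27, and a signal near them was not shown to be above background. Across genes, ventral arrays correlated with each other at 0.887 to 0.898 and dorsal arrays at 0.813 to 0.828, and genes had a median SD of 0.18 over ventral and 0.26 over dorsal arrays. The labelled regions were checked against marker lists. Of 12 sclerotome markers, genes of the mesenchyme around the notochord, 10 had lower values in ventral tissue, led in signal by Twist1 (difference -1.40) and Foxc1 (-0.48), and the list's summed linear signal ran from 159 to 208 in ventral and from 271 to 278 in dorsal arrays. Of 12 markers of ventral mesoderm and gonadal ridge 5 had higher ventral values, and the summed signals overlapped, at 191 to 208 in ventral and 189 to 226 in dorsal arrays. The 8 measured notochord markers overlapped as well, at 151 to 186 in ventral and 152 to 194 in dorsal arrays. Endothelial and macrophage and megakaryocyte markers also overlapped in summed signal. So did neural and stress markers, but each had 1 array apart. The neural sum was 336 in ventral array 1, against 99.5 to 126 in the other 5 arrays, and the stress sum was 201 in dorsal array 3, against 118 to 138 in the other 5. Erythroid markers varied most, from 532 to 8229 in ventral and from 1347 to 4927 in dorsal arrays, with Hba-x, an embryonic globin, at 9.79 ± 2.54 in ventral and 10.1 ± 0.92 in dorsal tissue (SD, n = 3 each).

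Promoter windows of the genes were available for 9 of the 10, Actb being the exception, and 2 are printed because Cfl2 and Actc1 are genes whose ventral signals all lay below the dorsal ones. Each window runs from 250 bases before to 50 bases after the annotated start, 5′ to 3′ on the gene's strand, from RefSeq on GRCm38.p6, a build used for these windows only; the build behind the probe sets was not stated. Capitals mark CArG boxes (a pair of C, then 6 bases of A or T, then a pair of G) and the GC box GGGCGG on either strand, where neighbouring matches run together.
Cfl2, chr12:54862828-54863127, minus strand: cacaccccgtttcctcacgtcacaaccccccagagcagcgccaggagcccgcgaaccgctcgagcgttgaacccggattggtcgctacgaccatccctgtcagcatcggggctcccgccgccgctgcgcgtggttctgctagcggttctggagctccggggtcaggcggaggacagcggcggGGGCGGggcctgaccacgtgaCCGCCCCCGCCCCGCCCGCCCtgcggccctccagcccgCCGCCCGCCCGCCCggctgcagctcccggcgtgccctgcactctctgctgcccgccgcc
Actc1, chr2:114052826-114053125, minus strand: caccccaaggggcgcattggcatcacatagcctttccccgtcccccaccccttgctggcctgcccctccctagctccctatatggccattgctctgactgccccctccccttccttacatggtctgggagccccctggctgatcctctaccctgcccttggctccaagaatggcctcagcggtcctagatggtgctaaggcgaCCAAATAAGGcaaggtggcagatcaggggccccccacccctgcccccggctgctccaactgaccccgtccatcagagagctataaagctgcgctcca
The Cfl2 window held 8 matches to the GC box and no CArG box, and 75.3% of its bases were G or C. The Actc1 window held 1 CArG box, which begins 47 bases before the annotated start, and no GC box, with 62.7% G or C. Among 32851 windows of this length 1.63% held a CArG box and 35.7% held the GC box. Of the other windows, that of Actg1 held 1 match to this strict CArG pattern and those of Acta2, Cfl1, Dstn, Pfn1, Tmsb4x and Tmsb10 held none. Near matches, with 1 G or C among the 6 middle bases, were not counted. Such stretches include ccctatatgg and ccttgtttgg in the Acta2 window and ccatgtatgg in the Dstn window. The Actc1 window also holds ccctatatgg, ccttacatgg and ccaagaatgg. A count of none therefore does not mean that a promoter lacks CArG-like elements. The GC box had 6 matches in the window of Actg1, 4 in Dstn, 2 each in Cfl1 and Pfn1, none in Acta2, 1 in Tmsb4x and 1 to 2 for each of the 3 annotated starts of Tmsb10. A match describes letters in the window and shows no binding.

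Of the 9 measured genes, 7 had lower and 2 had higher mean values in ventral tissue. The median difference was -0.08, against -0.06 over all genes, of which 58.0% had lower ventral values. In 3 genes, Actb, Cfl2 and Actc1, every ventral array lay below every dorsal array, a state that 12.0% of all genes shared. No gene had all ventral arrays above all dorsal arrays, against 6.74% of all genes. Limma with the replicate number as a block called 0 of the 9 genes and 0.00% of all genes at a Benjamini-Hochberg adjusted p of 0.05. With the block, 2522 genes, 10.2%, had an unadjusted p under 0.05, and without the block 2765 genes did. At the adjusted threshold the fit without the block called 1 gene, or 0.00405%, which was not one of the 9.

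**Figure D1:**
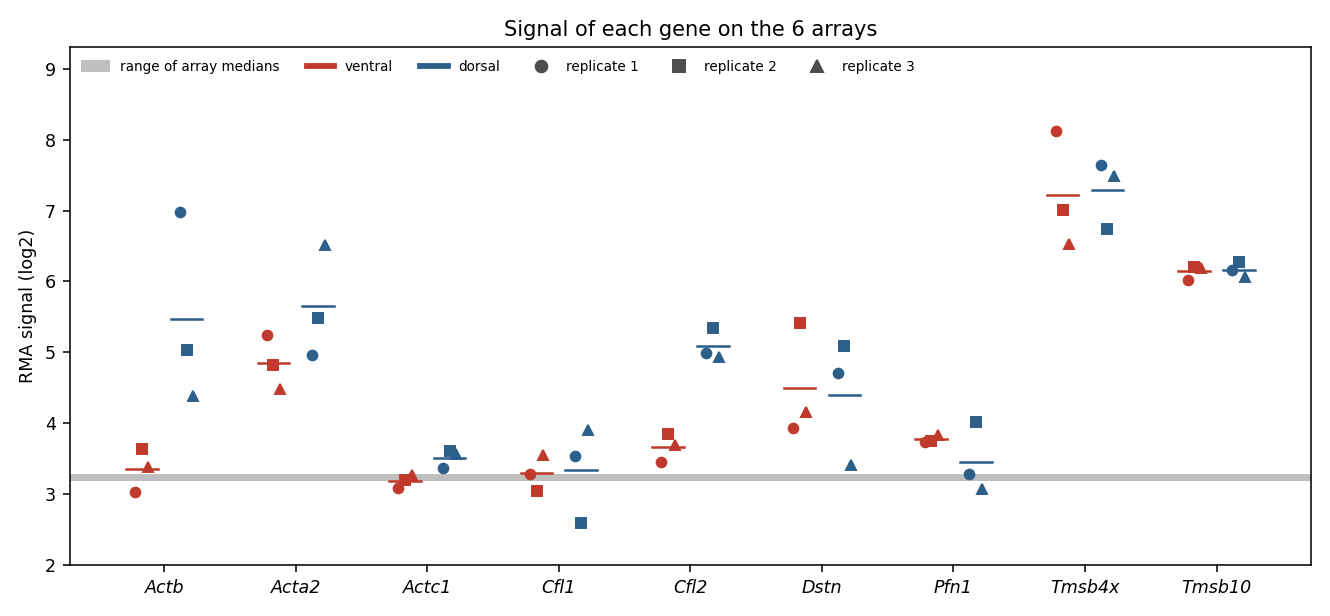
RMA signal (log2) of the 9 measured genes on each array, ventral (red) left of dorsal (blue). Symbols mark the replicate number, short lines the mean of 3 arrays, and the grey band the array medians (3.20 to 3.27). Ventral and dorsal points are apart for Actb, Cfl2 and Actc1 and overlap for the other 6 genes.

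Actb encodes beta actin, the main non-muscle actin. It was at 3.04, 3.64 and 3.38 in ventral arrays 1 to 3, against 6.98, 5.03 and 4.39 in dorsal arrays 1 to 3. The ventral values lay close together near the array medians, while the dorsal values were spread, with array 1 highest and array 3 lowest. The means were 3.35 ± 0.30 in ventral and 5.47 ± 1.35 in dorsal tissue (SD, n = 3 each), and the difference was -2.12 ± 0.57 (SE, limma), a 4.33-fold lower ventral signal. With ventral signals at the array medians, not shown to exceed background, this fold is of signal and the transcript may differ by more or by less. The size rested on dorsal array 1, and without it the difference was -1.36. Actb held the largest range of the 9 genes over the 6 arrays, 3.94, which exceeded that of 99.3% of all genes. The summed signal of the sclerotome markers was likewise lower in all ventral arrays (159 to 208, against 271 to 278 in dorsal arrays), and its part in the actin differences was not tested. In tissue pieces of this kind, fewer cells of a type and less RNA per cell cannot be told apart. Actb has close relatives and processed copies, so how far its probe set reads other loci is uncertain.

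Acta2, the alpha actin of smooth muscle, was at 5.25, 4.82 and 4.48 in ventral arrays 1 to 3. In dorsal arrays 1 to 3 it was at 4.96, 5.48 and 6.52. The groups overlapped, since ventral array 1 lay above dorsal array 1. The difference was -0.80 ± 0.43, of which dorsal array 3 carried more than any other array, and without that array it was -0.37. Smooth muscle and pericyte markers overlapped between the groups. Of the 10 markers 6 had lower ventral values, with summed signals of 112 to 120 in ventral and 100 to 115 in dorsal arrays. Notch3, a receptor that pericytes need, was at 4.92 ± 0.11 in ventral and 4.38 ± 0.33 in dorsal tissue, and Cspg4, the NG2 proteoglycan of pericytes, at 4.29 ± 0.23 in ventral and 4.02 ± 0.31 in dorsal tissue (SD, n = 3 each). Both were named for the highest mean signals of the list. Its smooth muscle genes, named after their values were seen, were Cnn1 (-0.37), Myh11 (-0.17), Tagln (-0.16), Smtn (-0.04) and Myocd (0.06). The means of these genes lay near or below the array medians.

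Actc1, the alpha actin of heart and embryonic skeletal muscle, had signals of 3.09, 3.21 and 3.27 in ventral arrays 1 to 3, against 3.37, 3.61 and 3.58 in dorsal arrays 1 to 3. The groups did not overlap, but all 6 values lay near the array medians. The difference was -0.33 ± 0.17, and it was -0.28, -0.40 and -0.31 in pairs 1 to 3. Of 17 skeletal and cardiac muscle markers 10 had lower ventral values, and the summed signals overlapped, at 242 to 250 in ventral and 239 to 252 in dorsal arrays. Tnnc1, the calcium-binding troponin of slow and cardiac muscle, was at 5.56 ± 0.18 in ventral and 5.52 ± 0.12 in dorsal tissue, and Nkx2-5, a cardiac transcription factor, at 4.29 ± 0.15 in ventral and 4.72 ± 0.23 in dorsal tissue. The muscle actins are nearly identical in their coding sequence, so their separate signals are uncertain to that extent.

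Cfl2, the cofilin of muscle, was separated between the regions by a similar amount in each pair. It was at 3.45, 3.84 and 3.69 in ventral arrays 1 to 3, against 4.996, 5.34 and 4.94 in dorsal arrays 1 to 3. The lowest dorsal array stood more than 1 log2 unit above the highest ventral array. The means were 3.66 ± 0.20 in ventral and 5.09 ± 0.22 in dorsal tissue, and the difference was -1.43 ± 0.17, a 2.69-fold lower ventral signal. As for Actb, the ventral signals lay close to the array medians, so the transcript may differ by more or by less than its signal. Pairs 1 to 3 gave -1.54, -1.49 and -1.25.

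Its relatives did not share that separation. Cfl1, the cofilin of non-muscle cells, was at 3.28, 3.05 and 3.55 in ventral arrays, against 3.54, 2.60 and 3.90 in dorsal arrays. Dorsal array 2 was the lowest of the 6 and dorsal array 3 the highest, so the ventral values lay inside the dorsal range, and the difference was -0.05 ± 0.22. Dstn, destrin or ADF, which severs filaments and binds monomers, was at 3.93, 5.42 and 4.15 in ventral arrays, against 4.71, 5.09 and 3.41 in dorsal arrays. In both regions array 2 was the highest, and the difference was 0.10 ± 0.32. The ventral minus dorsal difference of Cfl2 was more negative than that of Cfl1 in every pair, by -1.29, -1.94 and -0.90 in pairs 1 to 3, and more negative than that of Dstn by -0.76, -1.82 and -1.99. These differences within the family describe unequal change between probe sets and were not tested, because the genes were chosen with this contrast known. The mean of Cfl1, 3.32, lay near the array medians, which limits what its comparison with Cfl2 can show.

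Pfn1, the widely expressed profilin, was at 3.74, 3.75 and 3.83 in ventral arrays, against 3.28, 4.02 and 3.08 in dorsal arrays. The ventral values were nearly equal and lay inside the dorsal range. The difference was 0.31 ± 0.24, and pair 2 ran the other way, at -0.27. It was 0.12 without dorsal array 3 and 0.59 without dorsal array 2.

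The thymosins had means clearly above the array medians in both regions. Tmsb4x, thymosin beta 4, which sequesters actin monomers, was at 8.11, 7.004 and 6.52 in ventral arrays, against 7.64, 6.74 and 7.49 in dorsal arrays. Ventral arrays held both the highest and the lowest value, and the difference was -0.08 ± 0.31. Tmsb10, thymosin beta 10, a second sequestering peptide that is abundant in embryos, was at 6.02, 6.20 and 6.20 in ventral arrays, against 6.16, 6.27 and 6.07 in dorsal arrays. Its 6 values spanned 0.25, the smallest range of the 9 genes, and only 7 of the 1108 genes with a mean of 5 or more had a smaller one. The difference was -0.02 ± 0.17. This does not show equal levels of the transcript.

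**Figure D2:**
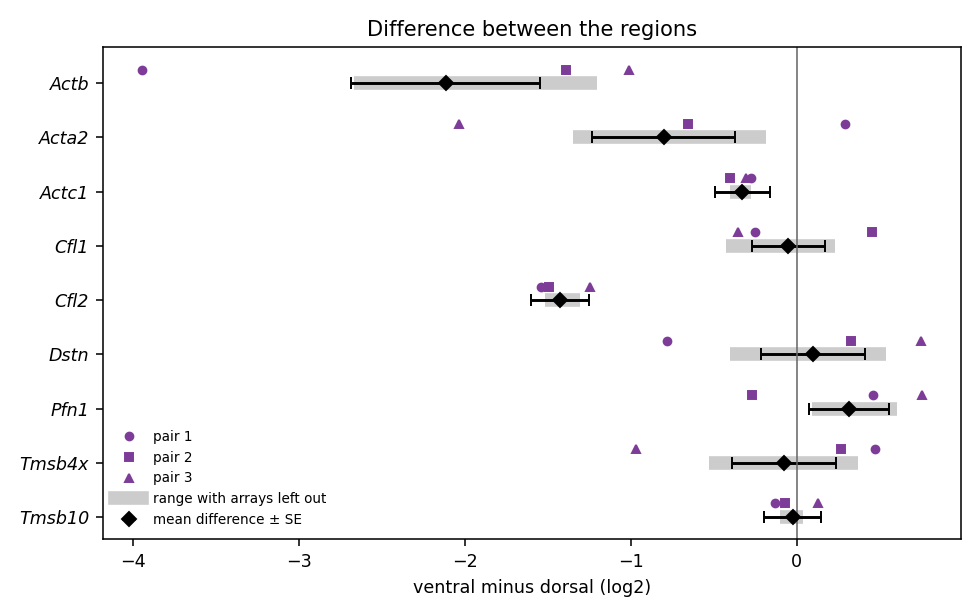
Ventral minus dorsal difference (log2) of each gene, with the limma SE (black), the value in each pair of equal replicate number (purple, drawn just above) and the range when a single array or both arrays of a number were left out (grey). Cfl2 and Actc1 have all pairs close together below 0, Actb has pair 1 at -3.94 and the others at -1.39 and -1.01, and Cfl1, Dstn, Tmsb4x and Tmsb10 have grey bars that cross 0.

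Over the 6 arrays the genes did not move as 1 group. As a description of 6 points that share their groups, Pearson correlations were 0.91 between Cfl2 and Actc1, 0.78 between Cfl2 and Actb and 0.77 between Dstn and Tmsb10. They were -0.85 between Tmsb4x and Tmsb10, -0.82 between Cfl1 and Pfn1 and -0.77 between Cfl1 and Dstn. Tmsb10 spanned only 0.25, and Actc1, Cfl1 and Pfn1 lay near the array medians, which limits what their correlations show. Actb and Acta2, a cytoplasmic and a muscle actin, had 0.10.

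**Figure D3:**
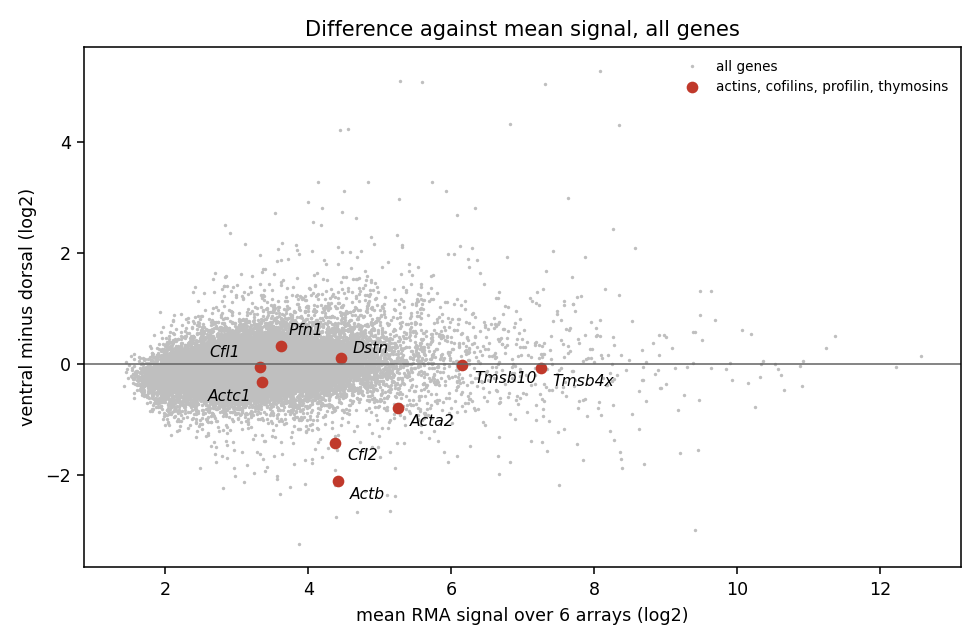
Ventral minus dorsal difference (log2) against mean signal over the 6 arrays (log2) for all 24675 genes (grey), with the 9 measured genes in red. Actb at -2.12 and Cfl2 at -1.43 lie at the lower edge of the cloud, and the other 7 genes lie between -0.80 and 0.31.

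Other genes with a like profile were sought among 469 named genes with a mean of at least 5 and a range of at least 1 log2 unit, for the 6 genes with such a range. With 6 arrays r is imprecise, and the values given are the highest of the 469, so these are descriptions. For each gene, 0 to 8 of the 469 had r above 0.9. Closest to Actb were Trbj1-6, a joining (J) segment of the beta-chain T-cell receptor locus (r = 0.97), and Tctex1d2, a dynein light chain (0.93). Trbj1-6 was at 6.37, 6.44 and 6.38 in ventral arrays, against 8.06, 7.44 and 6.67 in dorsal arrays, the same order of dorsal arrays as Actb. Closest to Acta2 were Hnrnpm, a splicing regulator (0.99), and Prps1, an enzyme of nucleotide synthesis (0.96). Closest to Cfl2 were Snhg9, a snoRNA host gene (0.98), and Sf3b6, a splicing factor subunit (0.95). Snhg9 and Sf3b6, like Cfl2, had every ventral array below every dorsal array, as did Trbj1-6 and Tctex1d2, like Actb. Their r values therefore partly restate the difference between regions. Within either region Cfl2 and Snhg9 each ranged over less than 1 log2 unit, and all ventral signals of Snhg9 lay below 5. Cfl2 and Snhg9 thus met the range limit, and Snhg9 the mean limit, only through the gap between regions. Closest to Cfl1 were Gabarapl2, an autophagy protein (0.95), and Nucks1, a chromatin protein (0.93), and to Dstn Nedd8, a ubiquitin-like modifier (0.98), and Scaf8 (0.92). Tmsb4x had no gene above 0.9 and was closest to Vezf1, a zinc finger protein, and Gnl3, nucleostemin, both at 0.90.

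The rest of the actin machinery was examined through 9 lists arranged by role, with 157 genes listed and 146 measured outside the genes above. Limma called 0 of the 146 at an adjusted p of 0.05 (lowest 0.378), against 0.00% of all genes. At an unadjusted p of 0.05 it had 9 of them, or 6.16%, against 10.2% of all genes. Of these, 4 had higher ventral values, or 2.74% of the 146, against 4.32% of all genes, and 5 had lower ones, or 3.42%, against 5.90%. Of the 146, 92 had lower and 54 higher ventral values, with a median of -0.10, against -0.06 over all genes. All ventral arrays lay below all dorsal arrays in 13, or 8.90%, against 12.0% of all genes, and above them in 5, or 3.42%, against 6.74%. Those 5 were Wasf1, Inf2, Svil, Myh10 and Fscn1, named after their values were seen.

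Cofilin regulators and partners had lower ventral values in 14 of 19 genes, with a median of -0.25. Rock1, a kinase upstream of the cofilin kinases, was at 6.02 ± 1.32 in ventral and 5.94 ± 0.22 in dorsal tissue (SD, n = 3 each), with a difference of 0.07. Cotl1, a coactosin that binds filaments, had -0.39 and Coro1b, a coronin that works with cofilin, 0.22.

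Among nucleators, the Arp2/3 complex, which starts branched filaments, and its activators had higher ventral values in 10 of 18 genes, with a median of 0.07. Its subunit Arpc1a was at 6.09 ± 0.10 in ventral and 5.62 ± 0.37 in dorsal tissue, and the WAVE complex genes Abi2 and Nckap1 differed by 0.21 and -0.08. Formins, which start straight filaments, and the genes listed with them had 11 of 19 lower, with a median of -0.07. The formin Fhod3 differed by 0.41, and Vasp and Enah, which are not formins, by -0.07 and 0.37. Capping and severing proteins had 14 of 19 lower, with a median of -0.12. The capping protein subunits Capza1 and Capzb, which close the growing end, differed by -0.11 and 0.47, and Eps8 by -0.41.

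Of the 11 other profilins, thymosins and monomer binders 6 had higher ventral values, with a median of 0.09. The profilins Pfn3 and Pfn4 differed by 0.15 and -0.02, and Twf1, a twinfilin that binds monomers, by 0.36. A further thymosin, Tmsb15b1, named after its values were seen, was at 2.41, 2.58 and 2.58 in ventral arrays, against 2.47, 8.84 and 2.50 in dorsal arrays. Its difference of -2.08 rested on dorsal array 2. The 6 other actins and actin-related genes were split evenly, and Acta1, the skeletal muscle actin, differed by 0.08, Actl6b by -0.08 and Actl6a, an actin-related subunit of chromatin remodellers, by 0.59.

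Tropomyosins and myosins had 10 of 14 lower, with a median of -0.16. Myl12b, a regulatory light chain of non-muscle myosin, was at 6.49 ± 0.48 in ventral and 7.09 ± 0.84 in dorsal tissue, and Tpm1 and Myl9 differed by -0.24 and -0.21. Crosslinkers and membrane linkers had 13 of 20 lower, with a median of -0.09, and Marcks, Dbn1 and Rdx differed by -0.10, -0.03 and 0.38. Serum response factor, its cofactors and targets had 14 of 20 lower, with a median of -0.13. Cnn3, a calponin, was at 5.25 ± 0.77 in ventral and 6.07 ± 0.20 in dorsal tissue, Tagln3 differed by -0.31 and Fhl1 by 0.18. Srf itself, named after its values were seen, differed by -0.21 ± 0.18 (SE).

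**Figure D4:**
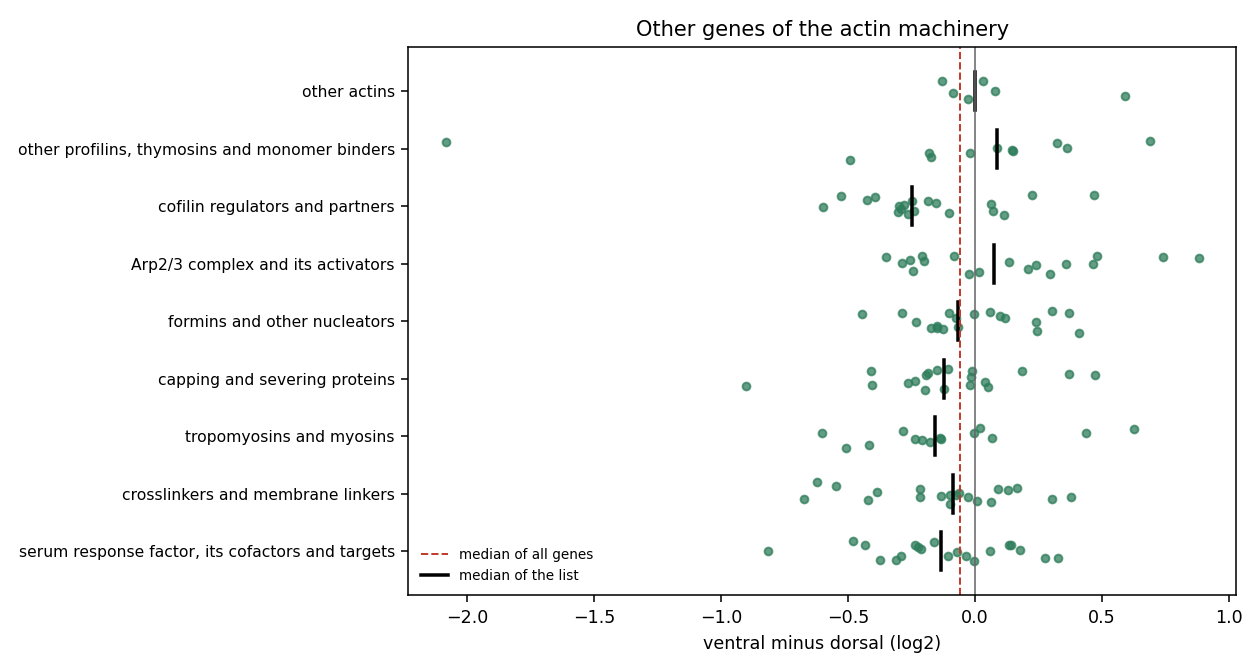
Ventral minus dorsal difference (log2) of the 146 measured genes in 9 lists of the actin machinery, 1 point per gene, with the median of each list (black) and of all genes (dashed, -0.06). List medians lie between -0.25 and 0.09, and the point at -2.08 is Tmsb15b1.

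The 9 genes of these lists with an unadjusted limma p below 0.05 were picked for their values, and their adjusted p lay between 0.378 and 0.484. The 4 with higher ventral values were Wasf1, a WAVE protein (0.74), Myh10, non-muscle myosin IIB (0.63), Actl6a (0.59) and Capzb (0.47). The 5 with lower ventral values were Tmod2, a tropomodulin that caps the slow end (-0.90), Marcksl1, a membrane linker (-0.67), Tesk1, a kinase of cofilin (-0.60), Mtss1 (-0.49) and the formin Diaph2 (-0.45).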

How the data were processed

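Values for 25429 probe sets on 6 arrays were used as deposited. The deposited log2 values were made by the authors with Affymetrix Expression Console and RMA, per the submitters' processing notes, which give no versions. RMA corrects background, normalises arrays to each other and summarises probes. The log base was read from the values. RNA (200 to 1000 pg per sample) was amplified before labelling, per the labels' protocols. No build is stated for the probe sets, and no detection calls were used. Exactly 1 gene symbol was listed for 24675 probe sets and none for 754, and the gene numbers of all 24675 were found in the RefSeq gene table of GRCm38.p6.

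Ventral minus dorsal differences were fitted in limma 3.58.1 (R 4.3.3, lmFit and eBayes) over all 24675 genes. Tests were two-sided with Benjamini-Hochberg adjustment and a threshold of 0.05. The replicate number was a block, since per the labels both regions were cut from the same embryos. The labels do not tie a number to an embryo, so a pair here means arrays of equal number. The fit was tested on simulated data. The number of arrays limits the precision, and an exact permutation test of 3 against 3 arrays cannot give a p below 0.1. Summed signals of marker lists are sums of 2 to the power of the log2 value.

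The genes and lists were chosen with earlier results of these data known. Results of 1 further list are not reported here. Named are the genes of the title families, the 3 genes of each pathway list and some of the first 2 of each marker list with the highest mean, any gene past the threshold, and the 2 genes most alike in profile to each gene with a range of at least 1. Left out there were predicted genes, olfactory and vomeronasal receptors and small RNA genes. Alternatives were no block, cyclic loess, median centring, filters on dim genes, an intensity trend, array weights and leaving out arrays.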

Additional observations from a re-analysis of the deposited data

How the results depend on the processing

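Limma called 0 of 24675 genes, and 1 gene with no replicate block. With arrays left out, singly in fits without the block or both of a number with it, it called 0 to 5 genes, 5 without both arrays numbered 1. Among the 146 pathway genes the count was 0 under every alternative run, arrays left out included. Cyclic loess, median centring, array weights, the intensity trend and both filters on dim genes also gave 0 among all genes.

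Over all genes together, equal numbers gave little sign of pairing: deviations from the group means correlated across genes at 0.04, -0.01 and 0.06 for numbers 1 to 3. Erythroid markers did run together by number. Their summed signal was 532, 2207 and 8229 in ventral arrays 1 to 3 and 1347, 1557 and 4927 in dorsal arrays 1 to 3. The block changes no difference of the 9 genes, only standard errors.

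The number of the 9 genes with higher ventral values was 2, and 1 to 4 with arrays left out. Their median difference of -0.08 was -0.16 after cyclic loess and ran from -0.35 to -0.030 with arrays left out. The number with separate groups was 3 and ran from 3 to 4. Over 12 alternatives Actb, Acta2, Actc1, Cfl2 and Pfn1 kept their sign in all 12, Dstn and Tmsb10 in 8, and Cfl1 and Tmsb4x in 7. Cfl2 ran from -1.52 to -1.30 and Actb from -2.67 to -1.20, the last without both arrays numbered 1. Acta2 ran from -1.35 to -0.18, the last without both arrays numbered 3. The median of all genes was -0.06 and became -0.005 after cyclic loess and -0.02 after centring. Signals near the array medians limit what Actb, Actc1, Cfl1, Cfl2 and Pfn1 can show.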
